A study of Mus musculus with 16 samples.

Results

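Tumours from mice given panobinostat and trastuzumab together were compared with tumours from mice given the vehicles alone. A gene entered the comparison when its row of the count table held a number in all 16 libraries, and 23354 of the 24681 listed mouse gene symbols did. The other 1327 symbols had a dot in place of a count in each of the 8 libraries from panobinostat-treated mice. Of the 23354, 15610 passed the filter on low counts and were tested.

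All mice were SCID mice, a strain that lacks mature T and B lymphocytes and keeps natural killer (NK) cells and macrophages. Each carried an established xenograft, 20 to 25 mm2 at the start, of AU565(pv), a human breast cancer line with amplified HER2, in the mammary fat pad. Mice in the vehicle group (3, 6, 21 and 29) received D5W on days 0 and 1 and PBS on day 0. Mice in the combination group (2, 11, 16 and 22) received 10 mg/kg trastuzumab on day 0 and 15 mg/kg panobinostat daily on days 0 and 1, although the series design puts the antibody on day 1. The 2 single-drug groups of 4 mice received 1 drug at the same dose and the vehicle of the other, all injections were intraperitoneal, and whole tumours were harvested on day 2. Each library is the tumour of 1 mouse. The counts are of mouse genes, those of the host's stroma, epithelium and immune cells, and human reads may add to conserved genes, since how they were separated is not given in the sources used here.

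Panobinostat blocks histone deacetylases, the enzymes that remove acetyl groups from histones and other proteins. Trastuzumab binds HER2 on the tumour cells, and its constant region is recognised by Fc gamma receptors of NK cells and macrophages. Interferons, which feature largely in the results, act through receptors that activate STAT transcription factors, and those of the type I response bind a DNA motif called the interferon-stimulated response element (ISRE) in front of antiviral genes. Type II interferon acts mainly on another motif, the gamma-activated site (GAS).

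Total counts were 4989001 to 6650009 in the vehicle and 5072404 to 8140782 in the combination libraries (exact two-sided permutation p = 0.571, where 0.0286 is the smallest p that 4 against 4 allow). Vehicle 21 stood apart through epidermal transcripts: its 6 keratinocyte genes summed to 478 CPM (counts scaled to a common library total), against 2.29 to 8.37 CPM in the other 7 libraries of the comparison. A pair of transcripts typical of lymph nodes, Glycam1 and Ccl21a, summed to 26.7 CPM in vehicle 29 and 116 CPM in combination 11, against 0.191 to 4.35 CPM in the other 6. The keratinocyte and lymph node sets were added after the data were seen. The T and B cell genes Cd3d and Ms4a1 had 0 to 4 counts in any library, and the T cell receptor gene Trac had 1 to 10. The 14 lymphocyte markers with values summed to 164 to 328 CPM in the 8 libraries, of which 145 to 275 CPM came from Thy1, singled out after its values were seen and also made by fibroblasts. In whole tumours, fewer cells of a type and less RNA per cell cannot be told apart.

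The combination changed 343 of the 15610 genes tested (2.2%) at an adjusted p under 0.05, here termed called. Of these, 265 (1.7%) were higher and 78 (0.5%) lower than in vehicle. The increases had a median log2 change of 1.19, with 160 at 1 or more, and the decreases a median of -0.67, with 25 at -1 or less. The median over all genes tested was -0.01. Without regard to p, 666 genes (4.27%) were higher in every combination library than in any vehicle library and 478 (3.06%) were lower in every one. The groups did not overlap for 254 of the called increases and 76 of the called decreases.

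**Figure D1:**
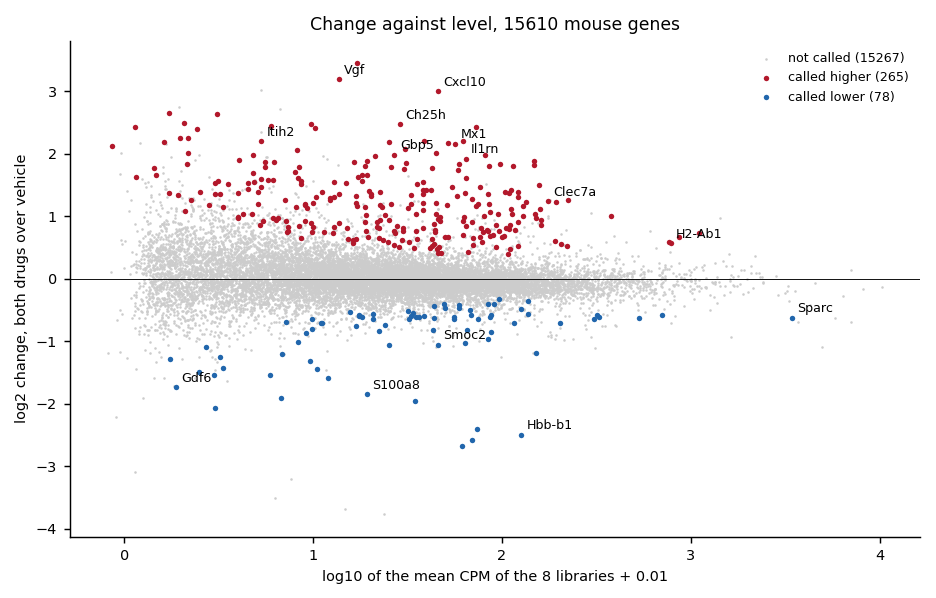
The log2 change of each of 15610 mouse genes, both drugs over vehicle, against the log10 of its mean CPM over the 8 libraries. Red points are the 265 genes called higher and blue points the 78 called lower. The red points reach 3.45 and the blue points -2.67.

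When single libraries were left out in turn, the count of calls ranged from 201 (without combination 11) to 379 (without combination 16), and was 210 without vehicle 6. All 343 genes kept their direction in those 8 fits and 156 kept the call in every one. When the 5 libraries of the series with epidermal or lymph node transcripts were set aside together, 2 vehicle and 3 combination libraries remained and 8 genes were called. Those 8 included Vgf, Smoc2, Hbb-b2 and Hba-a2, and the other 84 called genes named here lost the call in that fit. All 343 genes kept their direction in it, and 340 had an unadjusted p under 0.05. Those genes were picked in a fit that holds the same libraries, so this is not independent evidence.

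Calls also depended on the fit. With only the vehicle and combination libraries fitted, 127 genes were called, and 29 of the called genes named here lost the call: Stat2, Irf1, Batf2, Irgm1, Tgtp1, Ddx58, Aim2, Tap1, H2-Ab1, Cxcl9, Ccl12, Xcl1, Cxcr2, Cxcr4, Tnfsf10, Cd274, Clec12a, Clec4a2, Ptprc, Gzmb, Serpina3g, Unc13a, Ccnd1, Alas2, Sparc, Ptgs1, Adm, Hsd11b2 and Apln. With the mean level of luminal epithelial markers as a covariate, 165 were called, and 22 of those named lost the call: Stat2, Irf1, Ddx58, Aim2, Tap1, H2-Ab1, Cxcl9, Xcl1, Cxcr2, Tnfsf10, Cd274, Ptprc, Gzmb, Serpina3g, Itih2, Mcm5, Alas2, Sparc, Adm, Angptl7, Hsd11b2 and Apln. In limma voom, Cd274, Gzmb, Serpina3g and Adm were not called, and without the filter on low counts Cxcr2 was not.

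Antiviral effectors of the type I interferon response block viral entry, translation and replication. Of 32 listed, 20 rose and none fell, with a median log2 change of 1.22 over the 32 and a positive value for each. Mx1, a GTPase that traps viral ribonucleoproteins, stood at 19.1, 22.4, 12.9 and 28.4 CPM in vehicle 3, 6, 21 and 29 and at 58.6, 113, 45.7 and 153 CPM in combination 2, 11, 16 and 22. The groups did not overlap, and combination 11 and 22 were the high ones. The log2 change was 2.16 (SE 0.33, adjusted p = 0.00216). Ifit1, which binds viral RNA lacking the host cap modification, stood at 32.2, 48.4, 28.2 and 43.1 CPM in vehicle and at 89, 169, 68.2 and 203 CPM in the combination. The groups did not overlap, combination 22 and 11 were again the high ones, and the log2 change of Ifit1 was 1.8 (SE 0.30, adjusted p = 0.00388). Rsad2, which makes a chain-terminating nucleotide, rose by 2.01 (SE 0.32, adjusted p = 0.00356), Mx2 by 1.66 and Parp14, an ADP-ribosyltransferase, by 1.23 on the log2 scale. The count of called effectors was 13 without vehicle 21, 12 without combination 11 and 13 without combination 22, and it was 6 with only the compared groups fitted and 6 with the luminal covariate. With the 5 libraries set aside none was called, and the median was 1.05.

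Promoters of 7 genes that rose are shown because the ISRE core (GAAA, any 2 bases, GAAA) lies within each. They are the 250 bases before the annotated start on the gene's strand, from RefSeq on GRCm38.p6, with the motif on either strand in capitals.
Cxcl10 (chr5:92348890-92349139, minus strand): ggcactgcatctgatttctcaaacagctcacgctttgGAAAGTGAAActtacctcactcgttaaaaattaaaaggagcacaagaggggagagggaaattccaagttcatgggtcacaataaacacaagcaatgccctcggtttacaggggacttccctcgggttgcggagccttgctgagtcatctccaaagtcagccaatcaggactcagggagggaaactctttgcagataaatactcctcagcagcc
Ifit1 (chr19:34640639-34640888, plus strand): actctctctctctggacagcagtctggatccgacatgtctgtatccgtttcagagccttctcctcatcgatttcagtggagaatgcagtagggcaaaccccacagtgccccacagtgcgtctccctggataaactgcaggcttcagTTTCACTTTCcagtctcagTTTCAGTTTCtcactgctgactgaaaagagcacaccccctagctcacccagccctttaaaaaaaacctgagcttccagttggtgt
Rsad2 (chr12:26456453-26456702, minus strand): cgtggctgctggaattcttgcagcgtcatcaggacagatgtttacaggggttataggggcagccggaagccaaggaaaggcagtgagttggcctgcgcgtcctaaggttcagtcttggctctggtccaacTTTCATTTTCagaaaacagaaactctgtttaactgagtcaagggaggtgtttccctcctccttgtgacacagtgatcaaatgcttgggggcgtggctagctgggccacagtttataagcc
Gbp2 (chr3:142620413-142620662, plus strand): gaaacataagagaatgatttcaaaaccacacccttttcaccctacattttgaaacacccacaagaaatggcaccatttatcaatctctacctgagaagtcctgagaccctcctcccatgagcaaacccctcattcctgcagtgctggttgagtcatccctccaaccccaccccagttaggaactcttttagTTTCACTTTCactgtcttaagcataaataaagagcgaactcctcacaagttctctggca
Irgm1 (chr11:48871421-48871670, minus strand): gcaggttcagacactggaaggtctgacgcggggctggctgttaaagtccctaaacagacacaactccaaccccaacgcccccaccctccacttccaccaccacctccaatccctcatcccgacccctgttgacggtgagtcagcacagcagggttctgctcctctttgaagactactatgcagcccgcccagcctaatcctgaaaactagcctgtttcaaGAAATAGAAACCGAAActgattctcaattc
Stat2 (chr10:128270248-128270497, plus strand): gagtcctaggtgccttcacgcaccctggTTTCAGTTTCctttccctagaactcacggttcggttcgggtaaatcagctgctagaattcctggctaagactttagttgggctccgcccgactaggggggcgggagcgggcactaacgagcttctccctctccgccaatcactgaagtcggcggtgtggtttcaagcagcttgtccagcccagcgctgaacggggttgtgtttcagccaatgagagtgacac
Fcgr4 (chr1:171018676-171018925, plus strand): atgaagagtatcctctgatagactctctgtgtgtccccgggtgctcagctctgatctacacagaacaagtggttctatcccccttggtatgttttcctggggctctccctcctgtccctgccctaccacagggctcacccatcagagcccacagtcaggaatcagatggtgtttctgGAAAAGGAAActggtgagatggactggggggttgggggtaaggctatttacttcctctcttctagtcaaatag
Irgm1 and Ifit1 each hold 2 matches, which overlap in Irgm1. The first base of the match lies 213 bases before the start in Cxcl10 and 24 and 30 bases before it in Irgm1.

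Promoter sequence (250 bases before to 50 after the start) was found for 10926 of the genes tested. The ISRE core occurred in 40 of the 185 called-higher genes with a promoter (21.6%), in 1 of 51 called lower (1.96%) and in 3.59% of the 10690 not called. Over all 32851 promoters searched its share was 3.44%. The GAS motif, TTCNNNGAA, occurred in 17.8% of the called-higher genes, 5.88% of the called-lower genes and 8.11% of those not called. The cyclic AMP response element, TGACGTCA, occurred in 3.24%, 0% and 3.49%. Both strands were searched, matches of different motifs may overlap, and a match describes the letters only. By list, 9 of 10 interferon-inducible GTPases and 11 of 23 antiviral effectors with a promoter held the ISRE core, against 1 of 9 MHC class II genes.

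Interferon-inducible GTPases coat and break open the vacuoles of intracellular pathogens. Of 18 listed, 15 rose and none fell, and the median log2 change was 1.60. Gbp5, a guanylate-binding protein, stood at 11.7, 10.5, 9.39 and 12.2 CPM in vehicle and at 24.1, 54.3, 19.4 and 74.3 CPM in the combination. The vehicle libraries were close together while the combination libraries spread widely, and the log2 change was 1.99 (SE 0.34, adjusted p = 0.00488). Gbp9 rose by 1.34 and Gbp2 by 1.48 on the log2 scale, and the immunity-related GTPase Irgm1 by 1.38 (SE 0.25, adjusted p = 0.00568). Tgtp1 and Tgtp2, near-identical copies between which reads can be misassigned, rose by 2.18 and 2.21. The call count was 9 without vehicle 3, vehicle 21, combination 11 or combination 22, each left out alone, 4 with only the compared groups fitted, where Irgm1 and Tgtp1 lost their calls, and 8 with the luminal covariate. With the 5 libraries set aside none was called, and the median was 1.39.

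Among interferon signalling and transcription factors, 6 of 23 rose and none fell, with a median of 0.35. Batf2, a leucine-zipper factor of macrophages, rose by 1.79 (SE 0.34, adjusted p = 0.00888). Stat2 rose by 1.03 (adjusted p = 0.0156) and Irf1, a first-wave interferon regulatory factor, by 1.03 (adjusted p = 0.0207). The Stat2 call was lost without vehicle 21 (adjusted p = 0.0527) or combination 11 (0.0582), and the Irf1 call without vehicle 21 (0.0652), vehicle 29 (0.0540), combination 11 (0.0690) or combination 22 (0.0617). Irf7, the factor that amplifies type I interferon production, varied too much to be called: it stood at 168, 238, 100 and 263 CPM in vehicle and at 177, 489, 204 and 723 CPM in the combination (log2 change 1.05, SE 0.40, adjusted p = 0.226). The list's call count was 2 without vehicle 21 or combination 11, 3 without combination 22, 1 with only the compared groups fitted and 2 with the luminal covariate.

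Of 19 genes listed for the sensing of foreign nucleic acid, 9 rose, with a median of 0.64 and no decrease called. The list holds cytosolic sensors, some Toll-like receptors and signalling genes. Ifih1, a sensor of long double-stranded RNA, stood at 36.8, 52.5, 39.6 and 50.7 CPM in vehicle and at 73.6, 105, 75.1 and 150 CPM in the combination (log2 change 1.17, SE 0.20, adjusted p = 0.00480). Adar, which edits double-stranded RNA, had combination values of 93, 122, 101 and 108 CPM against 59.4, 56.5, 67.1 and 64.6 CPM in vehicle. The spread within each group was small and the log2 change was 0.78 (SE 0.11, adjusted p = 0.00129). Pyhin1, of the family of DNA-binding interferon-inducible proteins, rose by 1.78 (SE 0.24, adjusted p = 0.00129). Ddx58, which encodes RIG-I, rose by 0.93 (adjusted p = 0.0128, lost without combination 11 at 0.0548). Aim2, an inflammasome DNA sensor, rose by 0.59 (adjusted p = 0.0128, lost without vehicle 29 at 0.0503). The list had 5 calls without vehicle 21 and 5 without combination 11, 3 with only the compared groups fitted and 4 with the luminal covariate.

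In the class II pathway of antigen presentation, 8 of 12 genes rose and none fell (median 0.58), and in the class I pathway, 2 of 22 rose (median 0.39, 21 positive). H2-Ab1, the class II beta chain, stood at 602, 622, 637 and 662 CPM in vehicle and at 957, 979, 820 and 991 CPM in the combination. The groups did not overlap, and the log2 change of H2-Ab1 was 0.57 (SE 0.11, adjusted p = 0.0109), a call lost with only the compared groups fitted and with the luminal covariate. Ciita, the master activator of class II genes, was also even across libraries, at 30.6, 25.1, 28.3 and 33.4 CPM in vehicle and 58.1, 59.6, 65.7 and 57.8 CPM in the combination (log2 change 1.04, SE 0.18, adjusted p = 0.00488). H2-Ob, a modulator of peptide loading, rose by 1.22 (SE 0.16, adjusted p = 0.00108) and H2-DMb1, of the peptide loader, by 0.67 (adjusted p = 0.00689). The class II call count was 4 without vehicle 3, vehicle 6, combination 11 or combination 22, 5 without vehicle 21, and 3 with only the compared groups fitted or with the luminal covariate. The class I calls were Nlrc5, the activator of class I genes, which rose by 1.41 (SE 0.25, adjusted p = 0.00546), and Tap1, the peptide transporter, which rose by 1.00 (adjusted p = 0.0223). The Tap1 call was lost without vehicle 3 (0.0617), vehicle 6 (0.0534), vehicle 21 (0.0698), combination 11 (0.0937) or combination 22 (0.0775).

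**Figure D2:**
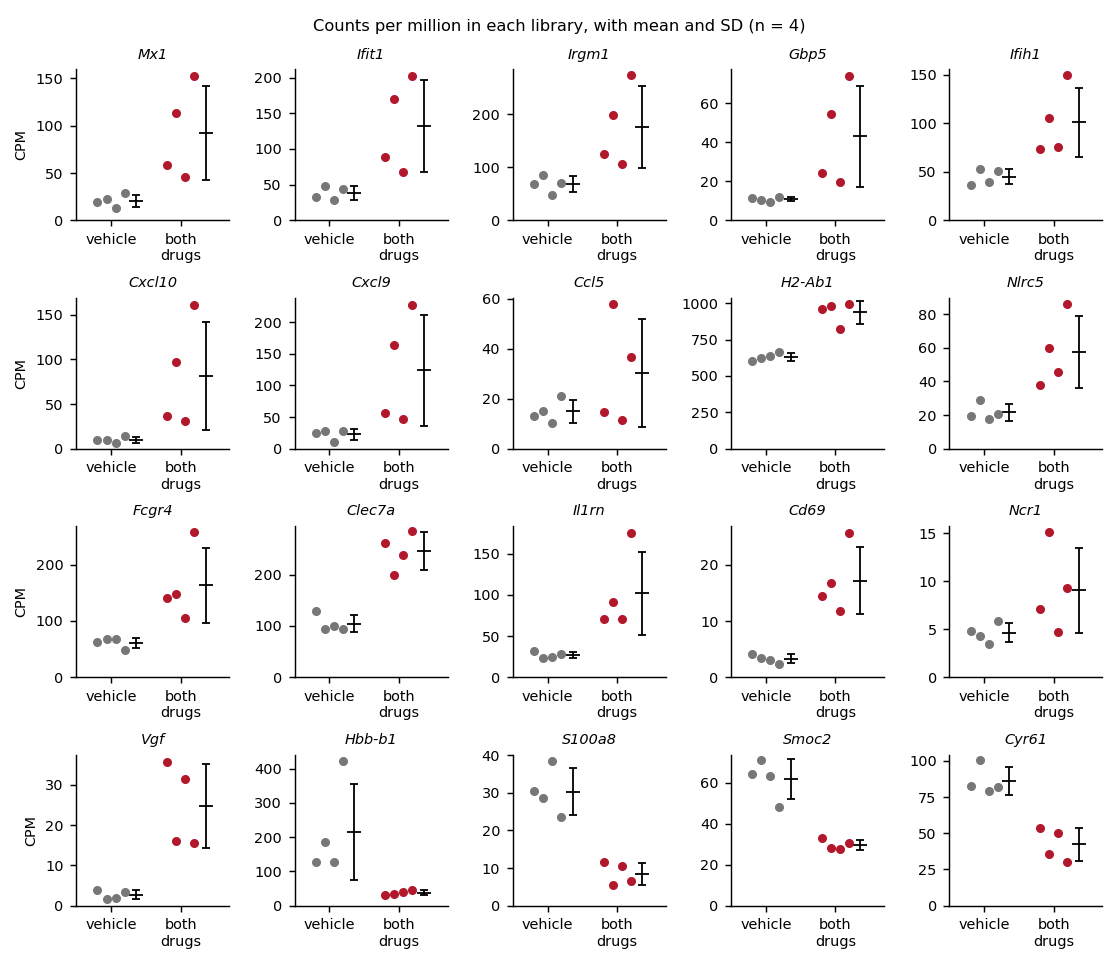
CPM of 20 genes in each of the 4 vehicle (grey) and 4 combination (red) libraries, ordered 3, 6, 21, 29 and 2, 11, 16, 22, with the mean and SD of each group at its right. Combination 11 and 22 are the highest for Mx1, Ifit1, Irgm1, Gbp5 and Cxcl10, while H2-Ab1 (820 to 991 CPM) and Smoc2 (27.4 to 32.8 CPM) vary less across the red points.

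The ligands of Cxcr3, the receptor that draws NK and T cells, rose, and Cxcl11 had the largest log2 change of the 343 called genes. Cxcl10 stood at 9.25, 10.3, 6.26 and 14.8 CPM in vehicle and at 36.6, 96.9, 31.2 and 161 CPM in the combination, a log2 change of 3.0 (SE 0.44, adjusted p = 0.00163). Cxcl11 stood at 3.82, 2.41, 1.74 and 3.54 CPM against 9.54, 36.3, 9.14 and 69.6 CPM, and rose by 3.45 on the log2 scale (SE 0.56, adjusted p = 0.00356). Cxcl9 stood at 24.8, 28.6, 10.4 and 27.9 CPM against 56.5, 164, 46.7 and 228 CPM, and rose by 2.43 on the log2 scale (SE 0.47, adjusted p = 0.00957). All 3 were separated between the groups, and combination 22 was the highest library for each. Without combination 22 the Cxcl11 change was 2.68 and remained called (adjusted p = 0.00559). The Cxcl9 call was lost with only the compared groups fitted and with the luminal covariate. In all, 4 of 12 CXC chemokines rose, and 2 in either of those fits.

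Of 15 CC and other chemokines, 4 rose and all 15 values were positive (median 0.49). The count was 2 without vehicle 6, vehicle 21 or combination 22, 2 with the luminal covariate and 0 with only the compared groups fitted. Ccl12, a monocyte attractant, averaged 45.4 ± 9.95 CPM in vehicle and 104 ± 43.2 CPM in the combination (SD, n = 4), so it rose by 1.19 on the log2 scale (SE 0.22, adjusted p = 0.00635). Xcl1, a ligand made by NK cells, stood at 1.41, 2.25, 1.91 and 4.93 CPM in vehicle and at 8.09, 11.8, 4.76 and 14.3 CPM in the combination (log2 change 1.87, SE 0.37, adjusted p = 0.0109). Vehicle 29 lay above the lowest combination library. Ccl5, another lymphocyte attractant, overlapped and was not called, at 13.3, 15.1, 10.4 and 21.1 CPM against 14.7, 58, 11.6 and 36.9 CPM (log2 change 1.02, adjusted p = 0.422).

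Among 11 chemokine receptors, 2 rose and 2 fell. Ccr2, the receptor of inflammatory monocytes, stood at 254, 268, 277 and 209 CPM in vehicle and at 613, 395, 518 and 492 CPM in the combination, a log2 change of 1.00 (SE 0.17, adjusted p = 0.00488). Here combination 2 was the highest library and combination 11 the lowest of the treated group, unlike the interferon genes. Cxcr4, the receptor of Cxcl12, averaged 68.2 ± 7.56 CPM in vehicle and 43.5 ± 5.98 CPM with both drugs, with a change of -0.65 on the log2 scale (SE 0.12, adjusted p = 0.00880). Cxcr2, the receptor that guides neutrophils, had a log2 change of -0.71 (adjusted p = 0.0320). Its call was lost in 6 of the 8 fits, those without vehicle 3, 6 or 21 or combination 2, 11 or 16, with an adjusted p of up to 0.127.

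Few cytokines and costimulators passed the test: 2 of 17 cytokine genes and 3 of 15 checkpoint ligands and costimulators rose. Il1rn, the antagonist of the interleukin-1 receptor, stood at 31.4, 23.2, 25 and 28.2 CPM in vehicle and at 70.4, 90.9, 70.5 and 176 CPM in the combination (log2 change 1.93, SE 0.27, adjusted p = 0.00129). Tnfsf10, the death ligand TRAIL, rose by 1.35 (SE 0.25, adjusted p = 0.00709). Tnf overlapped between the groups (5.44 ± 1.2 against 8.47 ± 3.87 CPM, adjusted p = 0.337). Ifng, the type II interferon, failed the filter with 0 counts in each vehicle library and 1, 7, 1 and 6 counts in combination 2, 11, 16 and 22. Cd86, a costimulator on antigen-presenting cells, rose by 0.96 (SE 0.16, adjusted p = 0.00357). Cd274, which encodes PD-L1, stood at 10.7, 11.4, 10.4 and 11.2 CPM in vehicle and at 16, 36.3, 14.1 and 48.8 CPM in the combination (log2 change 1.41, adjusted p = 0.0382). The groups did not overlap, yet the call was lost without any vehicle library or without combination 11 (adjusted p = 0.125) or 22 (0.129), and the checkpoint list then had 1 call.

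Receptors for antibody and for fungal sugars were among the genes that rose. Of 18 Fc receptor and phagocyte oxidase genes, 3 rose (median 0.29), and of 19 myeloid C-type lectins, 3 rose (median 0.32). Fcgr4, a receptor for IgG that triggers killing by macrophages, stood at 61.8, 67.4, 67.1 and 48.5 CPM in vehicle and at 141, 148, 105 and 258 CPM in the combination (log2 change 1.41, SE 0.21, adjusted p = 0.00184). Fcgr1, the high-affinity IgG receptor, rose by 1.03 (SE 0.15, adjusted p = 0.00129). Clec7a, the beta-glucan receptor Dectin-1, stood at 128, 94.6, 100 and 93.7 CPM in vehicle and at 262, 199, 238 and 284 CPM in the combination (log2 change 1.24, SE 0.16, adjusted p = 0.00108). Clec12a, an inhibitory lectin, rose by 0.81 and Clec4a2 by 0.67.

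Emr1, a surface antigen of mature macrophages, stood at 266, 273, 267 and 213 CPM in vehicle and at 251, 197, 218 and 234 CPM in the combination (log2 change -0.18, adjusted p = 0.586). The summed level of 22 macrophage and monocyte markers was 9310 to 12570 CPM in vehicle and 10030 to 12990 CPM in the combination. Of those markers, 4 rose (median 0.13), and the count was 2 without vehicle 6, vehicle 29 or combination 22. Itgax, which encodes CD11c, was the 1 called member among 17 dendritic cell markers, at 70, 35.6, 65.5 and 51.2 CPM against 125, 101, 144 and 97.5 CPM (log2 change 1.07, SE 0.19, adjusted p = 0.00568). Ptprc, the leukocyte antigen CD45, rose by 0.53 (adjusted p = 0.0441). That call stayed without vehicle 3 and was lost without any of the other 7 libraries (adjusted p up to 0.131).

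Apoptosis regulators had 3 calls among 25, and all 3 were copies of Bcl2a1, an anti-death member of the BCL2 family. Bcl2a1d stood at 23.3, 21.6, 17.9 and 20.3 CPM in vehicle and at 56, 43.5, 39.4 and 82.2 CPM in the combination (log2 change 1.42, SE 0.19, adjusted p = 0.00129). Bcl2a1a rose by 1.56 and Bcl2a1b by 1.13. The copies are close to identical, so their counts are not independent.

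Of 21 markers of NK and other cytotoxic cells tested, 5 rose and 20 had a positive value (median 1.02). Klrk1, the activating receptor NKG2D, stood at 8.45, 7.88, 6.95 and 11.4 CPM in vehicle and at 23.9, 41.1, 18.3 and 52.5 CPM in the combination (log2 change 1.97, SE 0.34, adjusted p = 0.00488). Il18rap, a subunit of the interleukin-18 receptor, was even, at 7.24, 5.15, 5.21 and 6.16 CPM against 14.9, 15.6, 16.2 and 12.2 CPM (log2 change 1.31, SE 0.22, adjusted p = 0.00488). Crtam, an adhesion receptor of activated cytotoxic cells, averaged 0.451 ± 0.242 CPM in vehicle and 2.99 ± 1.23 CPM with both drugs (log2 change 2.66, SE 0.49, adjusted p = 0.00730). The early activation antigen Cd69 is not on that list. Cd69 stood at 4.22, 3.38, 3.13 and 2.31 CPM in vehicle and at 14.6, 16.8, 11.8 and 25.7 CPM in the combination (log2 change 2.42, SE 0.29, adjusted p = 0.000728).

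The defining NK receptor and the pore-forming protein were not called. Ncr1, which encodes NKp46, stood at 4.83, 4.34, 3.48 and 5.86 CPM in vehicle and at 7.12, 15.2, 4.76 and 9.25 CPM in the combination (log2 change 0.98, adjusted p = 0.376). Prf1, the pore-forming perforin, stood at 2.21, 0.644, 0.521 and 1.85 CPM against 0.971, 5.68, 1.52 and 2.66 CPM (adjusted p = 0.478). Gzmb, a granule protease, stood at 1.01, 0.965, 0.695 and 0.77 CPM against 1.62, 11.8, 1.91 and 6.08 CPM (log2 change 2.65, SE 0.66, adjusted p = 0.0430). Combination 11 was the highest of the 8 libraries for Ncr1, Prf1 and Gzmb, and it also carried the lymph node transcripts. Without it the Gzmb change was 1.94 (adjusted p = 0.179), with the luminal covariate 1.99 and with the 5 libraries set aside 1.74, and its call was lost as well without any vehicle library or combination 22. Summed, 26 NK and cytotoxic markers were at 118 to 145 CPM in vehicle and 153 to 341 CPM in the combination. The list had 4 calls without combination 11, 2 with only the compared groups fitted, 3 with the luminal covariate and 0 with the 5 libraries set aside, which include combination 11. The part of lymph node tissue in these values was not tested.

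Several of the largest increases were in genes not placed in an immune list, such as Ch25h, which was listed with sterol synthesis. That placement does not set Ch25h apart from the interferon response. Ch25h, which makes the oxysterol 25-hydroxycholesterol, stood at 7.04, 11.4, 6.61 and 10 CPM in vehicle and at 34.6, 46.5, 40.6 and 74.9 CPM in the combination. It had the smallest adjusted p of the comparison's named genes (log2 change 2.48, SE 0.26, adjusted p = 0.000217). Cited1, a transcriptional coactivator, stood at 9.25, 7.08, 9.73 and 10.5 CPM against 45.5, 52.7, 28.6 and 39.8 CPM (log2 change 2.19, SE 0.31, adjusted p = 0.00129). Itih2, a hyaluronan-binding serum protein, stood at 1.41, 2.09, 2.43 and 1.54 CPM against 9.87, 12.2, 7.62 and 5.2 CPM (log2 change 2.20, SE 0.44, adjusted p = 0.0120). Combination 22 and 11 were the higher pair for Ch25h, and combination 11 and 2 for Cited1 and Itih2.

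Gpr31b, a lipid receptor, rose by 2.40 (SE 0.41, adjusted p = 0.00488) from levels of 0.201 to 1.39 CPM, and the change was 2.84 without vehicle 21 and 3.25, with the call lost, with the 5 libraries set aside. Serpina3g, a protease inhibitor, rose by 2.21 (adjusted p = 0.0179), with combination values of 27.3, 78.4, 23.1 and 126 CPM. The Serpina3g call was lost without vehicle 6 (0.0556), vehicle 21 (0.0527), vehicle 29 (0.0586), combination 11 (0.0559) or combination 22 (0.0650). Fpr2, a receptor for formylated peptides, rose by 1.56 (SE 0.30, adjusted p = 0.00964). Of further increases, chosen after their values were seen, Klra2, an inhibitory Ly49-type receptor, rose by 1.89 (SE 0.27, adjusted p = 0.00129) and Sirpb1a, an activating receptor of myeloid cells, by 1.29 (adjusted p = 0.00108). Cd52, a small leukocyte surface glycoprotein, rose by 1.17 (adjusted p = 0.00108) and Saa3, an acute-phase protein, by 1.31 (adjusted p = 0.00926).

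Of 18 neuronal and dense-core granule genes tested, 4 rose and none fell (median 0.50). Vgf, a secreted neuropeptide precursor, stood at 3.82, 1.61, 1.91 and 3.39 CPM in vehicle and at 35.8, 16.2, 31.4 and 15.6 CPM in the combination (log2 change 3.20, SE 0.36, adjusted p = 0.000434). The higher pair was combination 2 and 16, the lower pair for the interferon genes. Adipocyte markers also summed to less in combination 2 and 16 (8774 and 5253 CPM) than in combination 11 and 22 (13260 and 14810 CPM). Whether tissue composition bears on this split was not tested. Fxyd7, a regulator of the sodium pump, stood at 0.604, 0.483, 0.869 and 0.462 CPM against 4.37, 1.46, 5.33 and 2.92 CPM (log2 change 2.49, SE 0.40, adjusted p = 0.00313), with the same pair on top. Ptprn, a granule membrane protein, rose by 1.87 (SE 0.30, adjusted p = 0.00358), again highest in combination 16 and 2. Unc13a, a priming factor of vesicle release, rose by 1.14 (adjusted p = 0.00743).

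**Figure D3:**
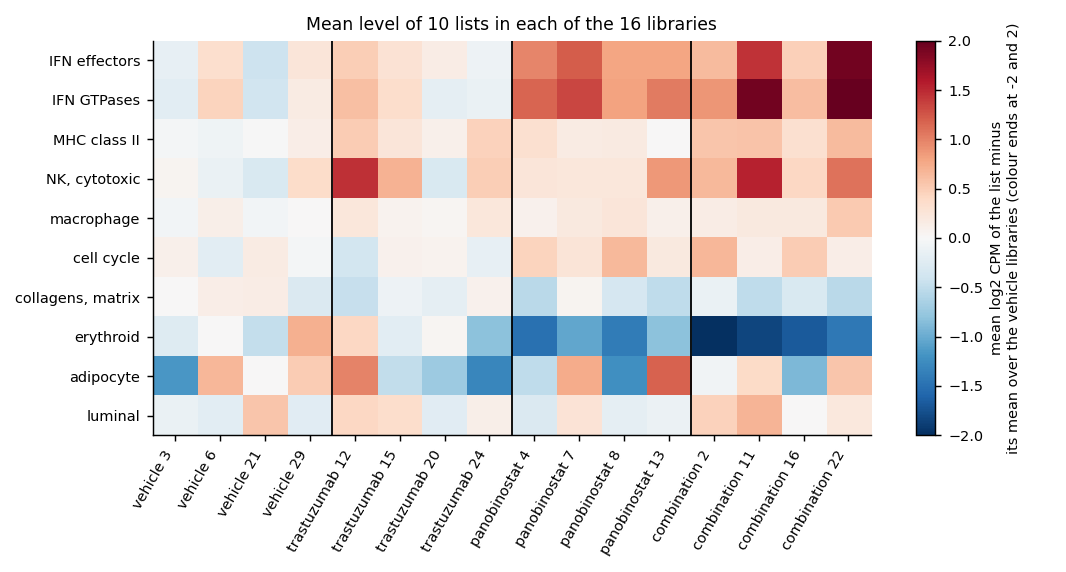
Mean log2 CPM of the tested genes of 10 lists in each of the 16 libraries, less the mean of the 4 vehicle libraries, with colours ending at -2 and 2. Combination 11 and 22 are the darkest red for the interferon lists (list means of 6.90 and 7.39 for the effectors, against 6.10 and 5.94 in combination 2 and 16), and the erythroid list is blue in all 4 combination libraries.

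Of 38 cell cycle and DNA replication genes, 2 rose and 37 had a positive value (median 0.39). Ccnd1, the G1 cyclin D1, stood at 47.7, 37.6, 52.9 and 51.6 CPM in vehicle and at 66.8, 90.3, 78.1 and 73.2 CPM in the combination (log2 change 0.70, SE 0.12, adjusted p = 0.00576). Mcm5, of the replicative helicase, rose by 0.59 (adjusted p = 0.0171, lost without vehicle 6 at 0.0548). Per1, a clock gene, was among the least variable changes, at 23.9, 18.7, 21.9 and 22.3 CPM against 40.3, 37.9, 38.1 and 35.7 CPM (log2 change 0.81, SE 0.10, adjusted p = 0.00108).

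No gene was called among 16 cyclin kinase inhibitors and reported responders to histone deacetylase inhibitors, or among 11 histone deacetylases. Over all genes tested 2.2% were called, and at that share lists this short would hold few calls or none. Cdkn1a, which encodes p21, stood at 36.4, 39.3, 33.9 and 48.4 CPM in vehicle and at 49.7, 45.2, 44.8 and 72.6 CPM in the combination (log2 change 0.43, adjusted p = 0.165). H1f0, a linker histone, had a log2 change of -0.28 (adjusted p = 0.284). Hdac2 had a change of -0.24 (adjusted p = 0.522) and Hdac5 of -0.09 (adjusted p = 0.782). These are counts of the mouse genes, to which human reads may add, and the human tumour cells' response was not measured separately.

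The steepest decreases were in red cell transcripts. Of 7 erythroid genes tested, 5 fell and all had negative values, with a median log2 change of -2.40. Hbb-b1, an adult beta globin, stood at 128, 185, 126 and 421 CPM in vehicle and at 30.6, 35, 41.3 and 45.9 CPM in the combination (log2 change -2.49, SE 0.38, adjusted p = 0.00216). Vehicle 29 was far above the rest, and without it the change was -1.94 (adjusted p = 0.00564). Hbb-b2, Hba-a1 and Hba-a2 had log2 changes of -2.67, -2.40 and -2.57, and that of Hba-a1 was -1.72 without vehicle 29. Hbb-b1 and Hbb-b2 are near-identical copies, as are Hba-a1 and Hba-a2. Reads are shared between such copies, so the globin counts are not independent. Alas2, the red cell enzyme of haem synthesis, stood at 4.02, 3.38, 3.3 and 8.78 CPM against 0.324, 0.583, 2.29 and 1.52 CPM (log2 change -2.07, adjusted p = 0.0325). Its call was lost without vehicle 3 (0.0530), vehicle 29 (-1.61, 0.128, and -1.43 with the 5 libraries set aside), combination 2 (0.0895), combination 11 (0.119) or combination 22 (0.0590).

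The calgranulin pair of neutrophils also fell. S100a8 stood at 30.4, 28.6, 38.4 and 23.4 CPM in vehicle and at 11.5, 5.39, 10.5 and 6.59 CPM in the combination (log2 change -1.85, SE 0.28, adjusted p = 0.00184). S100a9, its partner, had a log2 change of -1.96 (SE 0.34, adjusted p = 0.00488), with no overlap. In both, combination 11 and 22 were the lowest libraries. Of 11 neutrophil markers tested, 3 fell, the third being Cxcr2, and 1, Fpr2, rose. Values were positive for 5 and negative for 6 (median -0.20), and the highest, 1.90, belonged to a marker that was not called. Without regard to p, 3 markers were higher and 3 lower with no overlap between the groups, against 4.27% and 3.06% of all genes tested. The summed level of 17 neutrophil markers was 296 to 420 CPM in vehicle and 276 to 378 CPM in the combination, and these ranges overlapped.

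Of 35 collagen and other matrix genes, 2 fell and 32 had negative values (median -0.39). Smoc2, a matricellular calcium-binding protein, stood at 64.4, 71, 63.5 and 47.9 CPM in vehicle and at 32.8, 28, 27.4 and 30.7 CPM in the combination (log2 change -1.05, SE 0.15, adjusted p = 0.00129). Sparc, a collagen chaperone, stood at 3843, 4741, 3820 and 4249 CPM against 2874, 2406, 2674 and 2859 CPM (log2 change -0.62, SE 0.13, adjusted p = 0.0140). The Sparc call was lost without vehicle 6 (0.0516) or combination 11 (0.0580). Col1a1 (log2 change -0.43, adjusted p = 0.266) and Col3a1 (-0.69, adjusted p = 0.108) were not called. Fibroblast and pericyte markers summed to 18150 to 26520 CPM in vehicle and 13350 to 16240 CPM in the combination, ranges that do not overlap, while none of 18 was called.

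Of 23 matrix proteases and inhibitors, 3 fell (1 without vehicle 6, combination 2 or combination 11). Cyr61, a matricellular immediate early gene, stood at 82.7, 101, 78.9 and 81.8 CPM against 53.4, 35.7, 50.1 and 30.2 CPM (log2 change -1.03, SE 0.16, adjusted p = 0.00216) and was the 1 call among 21 immediate early genes. Combination 11 and 22 were the lower pair for Cyr61. Ctgf, a relative of Cyr61, did not overlap between the groups but was not called (log2 change -0.60, adjusted p = 0.0799), nor was Junb (-0.31, adjusted p = 0.163). Ptgs1, which encodes cyclooxygenase-1, had a log2 change of -0.64 (adjusted p = 0.0156, lost without vehicle 6 at 0.0638 or vehicle 21 at 0.0503).

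Gdf6, a bone morphogenetic protein, stood at 3.22, 3.22, 2.43 and 2.62 CPM in vehicle and at 0.485, 0.874, 1.33 and 0.76 CPM in the combination (log2 change -1.74, SE 0.28, adjusted p = 0.00356). Adm, the vasodilator adrenomedullin, had a log2 change of -1.59 (adjusted p = 0.0266) and was the 1 call among 25 hypoxia and glycolysis genes. Vehicle 6 was its highest library at 31.9 CPM, and the Adm call was lost without it (0.109), without vehicle 29 (0.0678), combination 2 (0.0869) or combination 11 (0.0934). Angptl7, an angiopoietin-like factor, had a change of -1.90 (adjusted p = 0.0339). It was lost without vehicle 3 (0.0677), vehicle 6 (-1.61, 0.122), combination 2 (0.0963), 16 (0.0723) or 22 (0.0624), and the change was -2.52 with the 5 libraries set aside. Hsd11b2, which inactivates glucocorticoids, had a change of -1.43 (adjusted p = 0.0142, lost without vehicle 29 at 0.0609 and at 0.05 without combination 11).

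Further decreases were chosen after their values were seen. H19, an imprinted non-coding RNA, averaged 211 ± 59.6 CPM in vehicle and 92.4 ± 21.4 CPM with both drugs (log2 change -1.19, SE 0.24, adjusted p = 0.0115). Fmod, the collagen-binding fibromodulin, averaged 112 ± 4.75 CPM in vehicle and 62.5 ± 11.4 CPM with both drugs (log2 change -0.85, adjusted p = 0.0121). P2ry12, a purine receptor of platelets and some macrophages, averaged 54.9 ± 7.94 CPM in vehicle and 31.2 ± 5.95 CPM with both drugs (log2 change -0.82, adjusted p = 0.0111). Apln, the peptide apelin, averaged 11.8 ± 1.17 CPM in vehicle and 6.47 ± 1.29 CPM with both drugs (log2 change -0.87, adjusted p = 0.0177, lost without vehicle 6 at 0.0524, vehicle 21 at 0.0559 or combination 2 at 0.0580).

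No gene was called in the lists of complement (18), heat shock and unfolded protein response (25), or Toll-like receptors and adaptors (18). The last leaves out the Toll-like receptors listed for nucleic acid sensing. With 2.2% called over all genes tested, lists of this length would hold few calls or none at that share. Nor was any called among adipocyte (16), luminal epithelium (21), skeletal muscle (6), nerve (9), mast cell and eosinophil (6) or lymphocyte (5) markers. Of the endothelial markers 1 of 21 was called. Pecam1, the endothelial antigen CD31, had a log2 change of 0.33 (adjusted p = 0.534), and Adipoq, made by fat cells, of 0.32 (adjusted p = 0.846). The adipocyte markers, which mark the surrounding fat pad, summed to 4579 to 18590 CPM in vehicle and 5253 to 14810 CPM in the combination. The mouse gene Erbb2, counterpart of the antibody's human target, stood at 151 ± 45.6 and 158 ± 59.3 CPM (log2 change 0.06, adjusted p = 0.952), and the luminal keratin Krt8 at 402 ± 44.9 and 353 ± 88.5 CPM (adjusted p = 0.668).

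**Figure D4:**
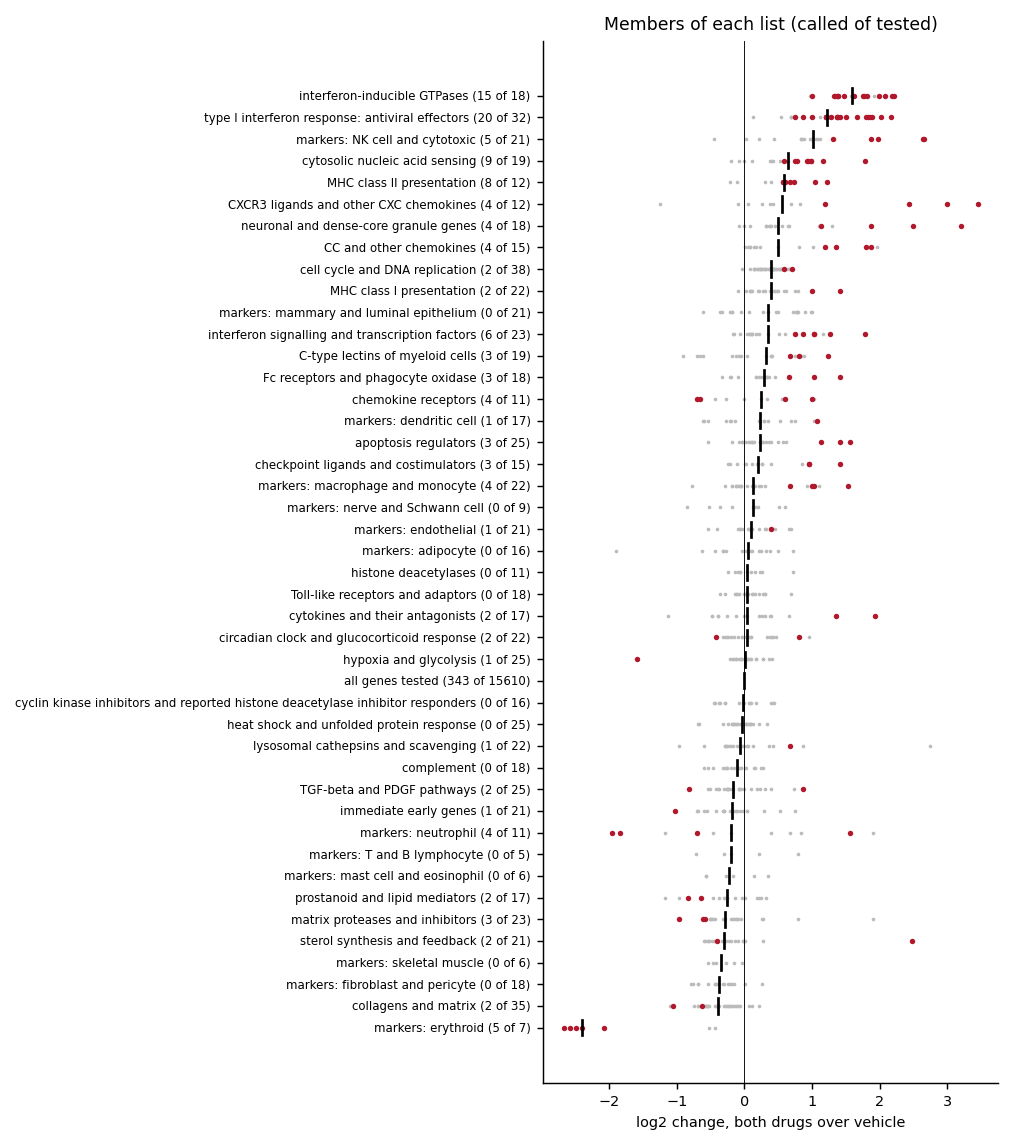
The log2 change of each tested member of each list with at least 5 members tested, red where called, with a black bar at the list's median and the number called of the number tested in the label. The 4 lists of highest median are the interferon-inducible GTPases (1.60), the antiviral effectors (1.22), the NK and cytotoxic markers (1.02) and the nucleic acid sensing genes (0.64). The erythroid markers lie lowest (-2.40).

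Some of the genes that rose lie within 200 kb of each other on GRCm38.p6. Blocks were drawn by linking such genes, so each starts and ends at a gene that rose. A high share within a block is therefore built in, and over all genes tested 1.7% rose. The block with the most genes that rose lay on chromosome 17 between 34119693 and 34344645. There, 9 of 13 genes tested rose, among them H2-DMb1, Tap1, H2-Ob and H2-Ab1. On chromosome 11 between 48865245 and 49096987, 7 of 10 rose, from Irgm1 through Tgtp1 and Tgtp2. On chromosome 19 between 34473783 and 34662981, 6 of 8 rose, including Ch25h and Ifit1. The 3 Cxcr3 ligands form a block on chromosome 5 between 92321331 and 92363296, and Cd69, Clec12a, Clec7a and Klrk1 rose among 10 genes tested in a block on chromosome 6. Members of such blocks are often paralogs, and reads can be shared between close copies.

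Some counts may include an overlapping gene on the other strand, which the kit does not distinguish. In GENCODE, exons of Tap1 overlap Psmb9, those of Ciita overlap Dexi, those of Adar overlap Chrnb2, those of Unc13a overlap Colgalt1 and those of Erbb2 overlap Mien1. On the same strand, Gbp9 shares exonic sequence with Gbp4 and Gbp8, and Fpr2 with Fpr3.

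Whether the combination went beyond either drug was addressed by direct tests, which share the combination libraries with the comparison above. Against panobinostat alone, edgeR called no gene (0%), and limma voom called none. At an unadjusted p under 0.05 there were 700 genes, 452 higher and 248 lower, and the smallest adjusted p was 0.182. DESeq2 called 14 genes, all higher in the combination, with Il1rn (log2 difference 1.62), Clec7a (0.90), Itih2 (2.27), Bcl2a1d (0.96), H2-Ab1 (0.47), Ch25h (1.08), Cd69 (1.19) and Cited1 (1.23) among them. Against trastuzumab alone, 98 genes were called (0.628%), 73 higher (0.468%) and 25 lower (0.16%). That count was 3 without trastuzumab 20, 4 without trastuzumab 15, 12 without trastuzumab 24, 7 without combination 22, 8 without combination 11 and 179 without combination 16. No gene was called for the interaction of the drugs (0%), where 279 had an unadjusted p under 0.05 and limma voom and DESeq2 called none. For comparison with the same vehicle libraries, panobinostat alone gave 30 calls (0.192%) and trastuzumab alone 0 (0%), the latter with 549 genes at an unadjusted p under 0.05.

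The means over the 4 libraries of each group are given side by side. For Vgf they were 2.68 ± 1.09 CPM in vehicle, 2.54 ± 1 with trastuzumab, 21.7 ± 5.42 with panobinostat and 24.7 ± 10.4 with both. The combination exceeded trastuzumab by 3.29 on the log2 scale (SE 0.36, adjusted p = 0.000973) and panobinostat by 0.18 (SE 0.29, adjusted p = 0.991). Cxcl10 stood at 10.2 ± 3.54, 16.8 ± 3.06, 42.3 ± 10.9 and 81.5 ± 61 CPM in the same order. Its difference from trastuzumab was 2.29 (SE 0.42, adjusted p = 0.0289) and from panobinostat 0.95 (SE 0.39, adjusted p = 0.976). Smoc2 stood at 61.7 ± 9.76, 49.9 ± 10.5, 25.3 ± 1.96 and 29.7 ± 2.51 CPM, and differed from trastuzumab by -0.75 (adjusted p = 0.0344).

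Clec7a stood at 104 ± 16.2 CPM in vehicle, 178 ± 15 with trastuzumab, 132 ± 30.8 with panobinostat and 246 ± 36.5 with both. It differed from panobinostat by 0.90 (SE 0.16, adjusted p = 0.190) and from trastuzumab by 0.46 (SE 0.16, adjusted p = 0.275). Il1rn stood at 26.9 ± 3.61, 66.2 ± 10, 33.1 ± 9.73 and 102 ± 50.3 CPM, with differences of 1.63 from panobinostat (SE 0.27, adjusted p = 0.182) and 0.63 from trastuzumab (SE 0.26, adjusted p = 0.434). H2-Ab1 stood at 630 ± 25.3, 903 ± 126, 675 ± 59.2 and 937 ± 78.9 CPM, with a difference of 0.05 from trastuzumab (SE 0.11, adjusted p = 0.939). None of these differences passed the threshold in edgeR, which does not show that the groups were alike.

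Itih2 stood at 1.87 ± 0.479 CPM in vehicle, 2.9 ± 1.86 with trastuzumab, 1.82 ± 1.33 with panobinostat and 8.73 ± 3.02 with both. Its interaction term was 1.59 on the log2 scale (SE 0.67, adjusted p = 1.00). Cited1 stood at 9.14 ± 1.46, 18.8 ± 7.05, 17.7 ± 6.64 and 41.6 ± 10.2 CPM, with an interaction of 0.18 (SE 0.43). Cd69 stood at 3.26 ± 0.788, 4.87 ± 1.42, 7.6 ± 2.12 and 17.2 ± 6.03 CPM, and differed from trastuzumab by 1.82 (SE 0.27, adjusted p = 0.0181) and from panobinostat by 1.19 (SE 0.26, adjusted p = 0.485). Ch25h stood at 8.77 ± 2.33, 12.7 ± 2.53, 23.3 ± 6.22 and 49.1 ± 17.8 CPM and differed from trastuzumab by 1.96 (SE 0.25, adjusted p = 0.00344).

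**Figure D5:**
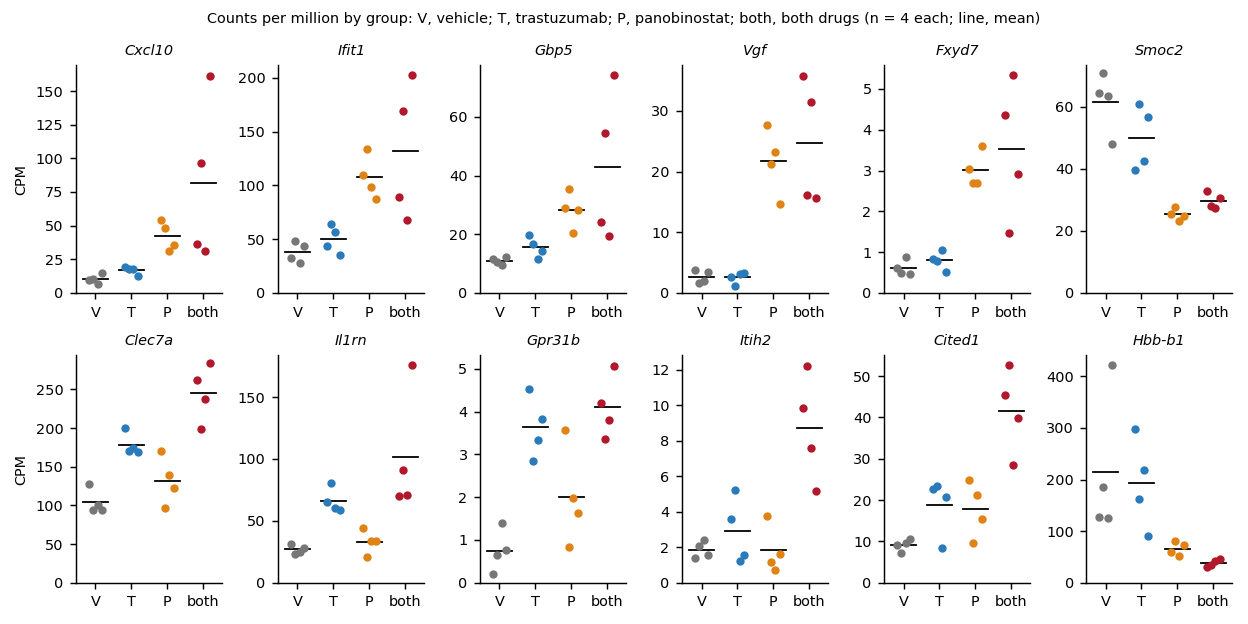
CPM of 12 genes in all 16 libraries by group, with the group mean as a line. Vgf has means of 21.7 CPM with panobinostat and 24.7 CPM with both drugs, Clec7a, Il1rn and Gpr31b have higher means with trastuzumab than with panobinostat, and Itih2 and Cited1 have means of 8.73 and 41.6 CPM with both drugs.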

How the data were processed

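RNA was sequenced from 16 whole xenograft tumours, 4 per group. The authors deposited unnormalized counts of reads for each mouse gene. CASAVA 1.8.2, TopHat2, HTSeq and the mm10 build are named in the submitters' processing notes. The annotation, and the step that set human reads aside, were not given in the sources used here. Symbols with dots were left out. edgeR 4.0.16 (R 4.3.3) tested 15610 genes that passed filterByExpr with TMM scaling and the quasi-likelihood F test, with a mean for each of the 4 groups over all 16 libraries, and Benjamini-Hochberg adjustment over all genes. The log2 CPM behind the list levels carry a prior count of 2, which was not applied to the log2 changes. The SE is the change divided by the square root of F, and CPM are TMM-scaled. Alternatives were DESeq2 1.42.0, limma 3.58.1 voom, other scalings and filters, the compared groups alone, marker covariates and single libraries left out; setting 5 libraries aside was added after seeing the data. Named genes were control genes, up to 5 called genes per list, and the 15 largest called increases and decreases. Those largest changes were drawn from genes averaging 1 CPM or more whose vehicle and combination libraries did not overlap. For genes named by that rule alone, the separation of the groups was therefore set by the choice. Cxcl9, Cxcl10, Cxcl11, S100a8 and S100a9 were also control genes. The comparison's members, the 44 lists and the tests were chosen with earlier results of these data known. The script was tested on simulated data. Some genes are not reported here.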

Additional observations from a re-analysis of the deposited data

Results flagged for a closer look

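In 12 of 247 groups of 4 values examined (4.86%), 1 library lay far from the other 3. Chance gives about 1 in 20, or 5%. The keratinocyte and lymph node sums, counted here, were added after the data were seen, so their flags carry no weight against that share. In vehicle 29, Hba-a1 stood at 262.6 CPM (others 63.28 to 95.89), Alas2 at 8.783 CPM (others 3.303 to 4.024), Batf2 at 4.777 CPM (others 3.42 to 3.54), Emr1 at 213.3 CPM (others 265.8 to 273) and the lymph node pair at 26.66 CPM (others 0.6436 to 4.346). In vehicle 21, the 6 keratinocyte genes summed to 478.4 CPM (others 2.615 to 8.045) and the symbols with dots to 2963 counts (others 157 to 236). Parp14 stood at 100.6 CPM in vehicle 6 (others 70.75 to 75.84) and Cd86 at 35.01 CPM in vehicle 3 (others 29.55 to 30.41). Among the combination libraries, H2-Ob stood at 16.99 CPM in combination 2 (others 12.82 to 13.18), Bcl2a1b at 67.55 CPM in combination 22 (others 32.96 to 38.02) and the lymph node pair at 115.8 CPM in combination 11 (others 0.1905 to 3.042).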

How the results depend on the processing

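The 343 calls against vehicle became 525 with DESeq2, 127 with only the compared groups fitted, 165 with a luminal score and 758 with an adipocyte score as covariate, 8 with 5 libraries set aside, and 201 to 379 with single libraries left out (210 without vehicle 6, 201 without combination 11). The 98 calls against trastuzumab became 219, 5, 12 and 205 under the first 4 of these, 11 with limma voom, and 3 to 179 with single libraries left out. DESeq2 called 14 genes against panobinostat where edgeR called 0, and the interaction had 0 calls in every fit run. The cause of these shifts was not tested. The other scalings and filters gave 316 to 408 calls against vehicle. Signs turned for Adipoq (-0.011 with the luminal score), for Erbb2 (-0.121 without vehicle 6, -0.15 without combination 16, and -0.15 to 0.279 over single libraries left out), neither of which was called, and for the difference in total counts (-81986 without combination 22, range -81986 to 940806). No paired analysis was possible because each mouse number occurs once. With 4 mice per group, totals of 4848244 to 8140782 counts limit what can be called among genes of few counts.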
